A study of Mus musculus with 21 samples.

Results

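The collagen genes of the mouse lung were described here after repeated instillation of 2 e-cigarette components. They were taken as every symbol in the count files that is spelled Col, a number, a and a number, which names a collagen alpha chain. This rule found 44 of the 23238 symbols. A filter on low counts left 27 of the 44 to be tested, and the other 17 were described by detection or highest level only. The lungs came from C57BL/6 mice that were given 50 µL by tracheal instillation on each of 14 days and killed on day 15, and the lungs were lavaged before tissue was taken. PG stands for propylene glycol, the carrier liquid of many e-cigarettes, which mice received at 826 or 1100 while their controls received saline. VEA stands for vitamin E acetate, an oil found in some vaping products, which mice received at 3.12, 6.25 or 12.5 while their controls received 10% ethanol. The sample labels write these doses in mg/kg and the series description writes the same numbers in mg/mL, so the numbers stand here without a unit. The 7 groups had 3 mice each, and every mouse gave 1 library. What VEA was given in is not stated beyond the naming of 10% ethanol as its control, and the age and sex of the mice are not given in the sources used here.

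Collagens are triple helices of alpha chains, and the chains that pair decide what the molecule builds. Fibrillar collagens form the cable-like fibrils of airway walls, vessels and alveolar septa. Type IV collagen forms the sheet-like network of basement membranes, type VI forms beaded filaments between cells and fibrils, and type VIII forms short-chain networks in vessel walls. Smaller classes sit on fibrils (the FACIT collagens), under basement membranes (the multiplexins and the anchoring fibrils) or span the cell membrane. In the lung most collagen is made by fibroblasts, and newly made fibrillar collagen is a hallmark of repair and fibrosis.

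The promoters of 4 genes described below are shown as examples. All 4 genes were called higher after PG 1100, and no annotated exon lies in the bases printed. Each is the 150 bases just before the RefSeq start on GRCm38.p6, read 5′ to 3′ on the strand of the gene. Capitals mark TATAAA (the letters of the TATA box) and GGGCGG (those of the GC box), found anywhere in the 150 bases. They were sought on both strands together with CCAAT (those of the CCAAT box), so that GGGCGG on the other strand reads CCGCCC. Col3a1 lies at chr1:45311388-45311537 (+ strand), Col5a1 at chr2:27886275-27886424 (+ strand), Col6a3 at chr1:90843972-90844121 (- strand) and Col8a1 at chr16:57754738-57754887 (- strand).
Col3a1: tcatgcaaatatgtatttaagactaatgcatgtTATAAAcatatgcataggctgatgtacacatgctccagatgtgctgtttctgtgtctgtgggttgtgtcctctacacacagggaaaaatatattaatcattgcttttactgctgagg
Col5a1: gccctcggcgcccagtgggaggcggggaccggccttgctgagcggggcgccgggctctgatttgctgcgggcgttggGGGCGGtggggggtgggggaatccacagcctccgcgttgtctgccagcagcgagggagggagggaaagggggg
Col6a3: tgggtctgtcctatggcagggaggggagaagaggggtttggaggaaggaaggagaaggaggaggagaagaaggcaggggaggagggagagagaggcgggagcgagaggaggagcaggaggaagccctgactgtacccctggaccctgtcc
Col8a1: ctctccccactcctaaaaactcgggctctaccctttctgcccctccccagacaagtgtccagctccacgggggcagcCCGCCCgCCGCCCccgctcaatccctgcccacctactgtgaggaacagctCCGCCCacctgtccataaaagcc
Col3a1 held 1 TATAAA, Col5a1 held 1 GGGCGG, Col8a1 held 3 GGGCGG and Col6a3 held none of the 3 motifs. The promoter of Col15a1 and a promoter of Col6a2, not shown, also met both conditions and held none of the 3. Of the 38 RefSeq promoters found for 35 collagen genes, 50% held GGGCGG, 21.1% CCAAT and 10.5% TATAAA. Among all 32851 promoters of the table, cut to the same length, the shares were 28.6%, 24.5% and 7.57% in the same order. These matches describe letters only, and their distance from the start was not considered. Col1a1, Col5a2 and Col14a1 are among the 9 collagen genes not in the table.

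Col4a1 and Col4a2, the chains of the common basement membrane network, start head to head, and the shared bases are shown because the levels of the genes are set side by side below. Their RefSeq starts overlap by 22 bases at chr8:11312805-11312826, on GRCm38.p6, which read on the + strand as follows.
Col4a1 and Col4a2: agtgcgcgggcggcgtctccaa

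Libraries were made by 3′ tag sequencing, which counts transcript ends, so a level is given as CPM, the count scaled to the TMM-adjusted library total, and is not divided by gene length. Totals were 8778028 to 11783151 counts per library, of which the 44 collagen genes took 0.1081% to 0.4262%. Ribosomal Rn45s took 14.59% to 26.07% and haemoglobin genes 4.06% to 13.75%. Haemoglobin took 4.54% to 5.54% in PG 1100 lungs, against 6.49% to 13.75% in saline lungs, and 4.06% to 5.13% in VEA 12.5 lungs, against 8.49% to 10.52% in ethanol lungs. Rn45s took 16.36% to 20.8% in PG 1100 lungs, against 21.61% to 21.96% in saline lungs, and overlapped between VEA 12.5 and ethanol lungs. With both left out of the counts, none of the 36 collagen calls examined was lost. This does not address a difference in blood or cell content, because other RNAs of such cells stayed in the counts, and that was not tested. Alveolar type II cell markers summed to 22780 to 49460 CPM, so the tissue carried the markers of lung. Saline animal 6 was the highest of its group, with 2036 CPM of summed collagen against 1290 CPM in saline animal 8 and 1186 CPM in saline animal 10. A gene was called where its adjusted p was below 0.05 in edgeR's quasi-likelihood test with Benjamini-Hochberg adjustment over 14727 genes, and every adjusted p below is from that test unless another tool is named. Changes are log2 fold changes ± SE. The labels do not say whether littermates or cages were shared, so p-values measure the spread between these animals.

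Over the 21 lungs the abundant collagen RNAs were those of the interstitial fibril and the common basement membrane. Col1a2, a chain of type I collagen, had the highest median at 544.2 CPM, then Col3a1, the only chain of type III, at 394.7 CPM, Col4a1 at 316.1 CPM, Col1a1, the partner chain of Col1a2, at 173 CPM and Col4a2 at 163.2 CPM. Their ranges over the lungs were wide. Col1a2 ran between 291.2 and 1128 CPM, and Col3a1 between 186.6 and 736 CPM. The fibrillar class took 48.99% to 64.56% of the summed collagen CPM of a lung and the basement membrane class 21.48% to 34.12%. Beaded filament genes took 6.80% to 8.98%, transmembrane collagens 2.07% to 6.80%, FACIT collagens 1.43% to 3.24%, and the network, multiplexin and anchoring fibril classes each at most 1.75%. The collagens of cartilage were at or near the floor. Col2a1 had counts in 2 of the 21 libraries, Col9a1 in 4, Col9a2 in 2 and Col10a1 in 8, and none of them passed 1.08 CPM. The other untested genes were Col6a4, Col6a5, Col6a6, Col9a3, Col11a1, Col11a2, Col19a1, Col20a1, Col22a1, Col24a1, Col25a1, Col26a1 and Col28a1. Within the 17 untested genes the highest level was 1.65 CPM, reached by Col19a1 in a saline lung. Col19a1 had 33 counts over the saline lungs and 0 over the ethanol and the VEA 3.12 lungs. It had at most 6 counts over any other group, and its difference was not tested.

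**Figure D1:**
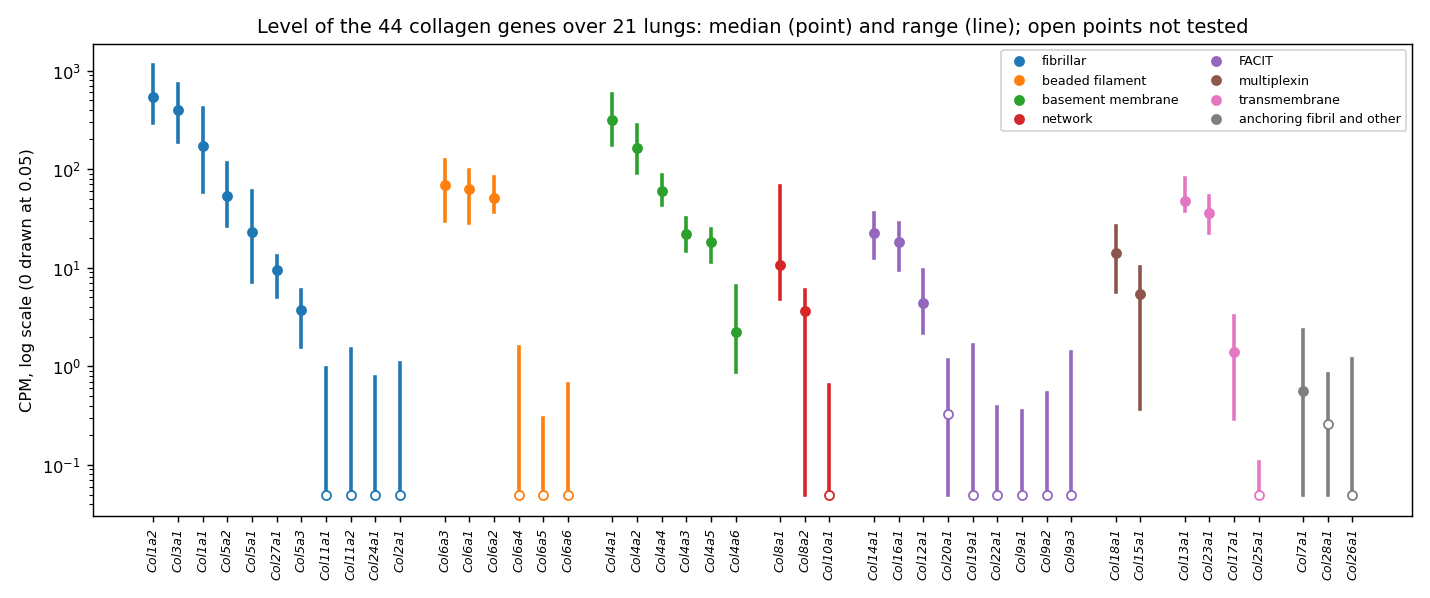
Level of each of the 44 collagen genes over the 21 lungs, as the median (point) and the range (line) in CPM on a log scale, grouped by collagen class. Filled points are the 27 tested genes and open points the 17 untested ones, and Col1a2, at a median of 544.2 CPM, stands highest.

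The higher PG dose was set against saline to ask how the lung's collagen RNAs respond to the solvent. After PG 1100, 15 of the 27 tested collagen genes rose and none fell, where 4.09% of all genes tested were called higher and 3.23% lower. The median change of the 27 was 0.82 on the log2 scale. Groups did not overlap for 14 of the 27, and 19.8% of all genes showed no overlap. The fibrillar, beaded filament, basement membrane, network, FACIT and multiplexin classes held called genes, and the transmembrane and anchoring fibril classes held none. In bulk tissue a change in the number of cells that make a transcript and a change in RNA per cell cannot be told apart.

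Of the 11 fibrillar genes 7 passed the filter, and 5 of these 7 were called higher. Col1a1 had 415.2, 278.8 and 266.5 CPM in PG 1100 lungs, against 113.2, 64.65 and 59.16 CPM in saline lungs. Every PG 1100 lung was above every saline lung, by 2.02 ± 0.20 (adjusted p = 2.02e-07), a 4.05-fold difference. Its partner in type I collagen, Col1a2, had 1128, 826 and 754.2 CPM in PG 1100 lungs, against 544.2, 307.2 and 291.2 CPM in saline lungs. The groups again did not overlap, and Col1a2 rose by 1.25 ± 0.19 (adjusted p = 7.02e-05). Col3a1, which co-assembles with type I collagen in stretchable tissue, had 736, 707.1 and 594.7 CPM in PG 1100 lungs, against 350.4, 248.9 and 186.6 CPM in saline lungs. The lowest PG 1100 lung stood well above the highest saline lung, and the rise was 1.37 ± 0.16 (adjusted p = 2.02e-07).

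Type V collagen starts the assembly of type I fibrils and limits their width, and both of its main chains rose. Col5a1 had 59.62, 38.09 and 40.53 CPM in PG 1100 lungs, against 23.09, 15.22 and 7.10 CPM in saline lungs. It rose by 1.61 ± 0.27 (adjusted p = 0.000116), with no overlap. Col5a2 had 111.2, 114.7 and 88.51 CPM in PG 1100 lungs, against 46.77, 36.77 and 26.56 CPM in saline lungs. This was a rise of 1.51 ± 0.19 (adjusted p = 8.17e-07), and all PG 1100 lungs were above all saline lungs. The remaining tested members of the class are rarer and were not called. Col5a3, a minor type V chain, averaged 5.14 CPM in PG 1100 lungs and 3.67 CPM in saline lungs, with a change of 0.48 ± 0.45, and Col27a1 averaged 10.9 CPM in PG 1100 lungs and 8.39 CPM in saline lungs, with a change of 0.38 ± 0.33.

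**Figure D2:**
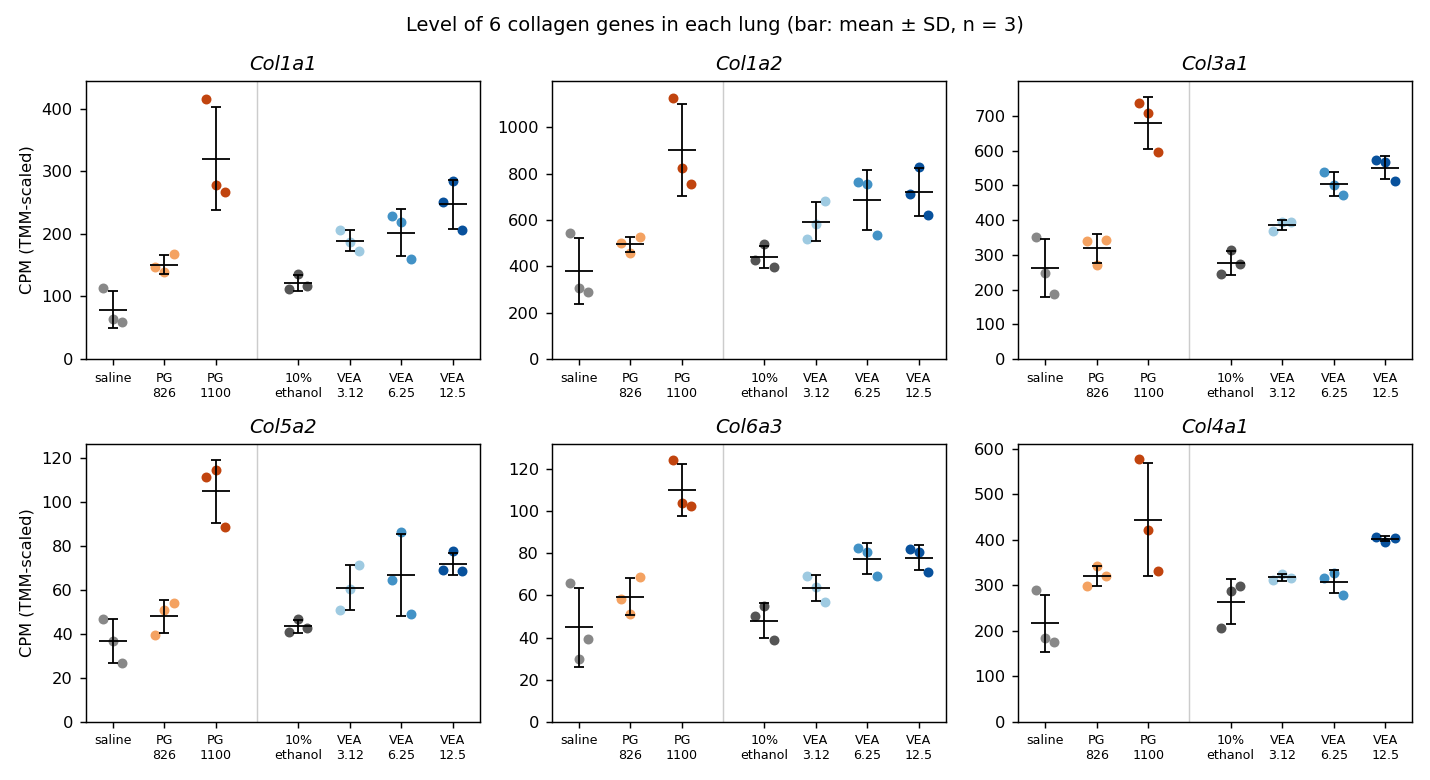
Level in each lung, in TMM-scaled CPM, of 6 collagen genes called higher after PG 1100, with 1 point per animal and the mean ± SD of 3 animals. PG 1100 lungs lie above all saline lungs in each panel, and Col1a1 reaches 415.2 CPM in the highest of them.

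Of the 6 genes of type VI collagen 3 passed the filter, and these 3 rose. Col6a3, the long chain that completes the type VI monomer, had 124.2, 103.7 and 102.3 CPM in PG 1100 lungs, against 65.91, 29.58 and 39.12 CPM in saline lungs. It rose by 1.29 ± 0.19 (adjusted p = 1.35e-05), with no overlap. Col6a1 had 97.97, 65.11 and 66.91 CPM in PG 1100 lungs, against 54.46, 34.45 and 28.32 CPM in saline lungs. The rise of this chain was 0.97 ± 0.19 (adjusted p = 0.000709), and the groups did not overlap. Col6a2 had 83.19, 65.34 and 56.56 CPM in PG 1100 lungs, against 44.5, 42.12 and 36.88 CPM in saline lungs. Here too every PG 1100 lung was higher, with a change of 0.73 ± 0.15 (adjusted p = 0.00132).

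Among the 6 basement membrane genes, the 2 chains of the common type IV network rose and the other 4 were not called. Col4a1 had 577.4, 421.8 and 331.8 CPM in PG 1100 lungs, against 289.1, 185.1 and 176.3 CPM in saline lungs. Col4a2, its head-to-head neighbour, had 278.8, 157.9 and 188.4 CPM in PG 1100 lungs, against 152.6, 98.62 and 91.47 CPM in saline lungs. Neither gene's groups overlapped, though for Col4a2 the lowest PG 1100 lung and the highest saline lung were close, and the rises were 1.03 ± 0.17 for Col4a1 (adjusted p = 7.28e-05) and 0.87 ± 0.18 for Col4a2 (adjusted p = 0.00175). Col4a3, Col4a4 and Col4a5 build the other type IV network, known from the alveolar and the glomerular basement membrane. Col4a3 averaged 17.5 CPM in PG 1100 lungs and 23.8 CPM in saline lungs, with a change of -0.44 ± 0.21 (adjusted p = 0.216), and it was called lower without saline animal 10 (-0.68, adjusted p = 0.0406). Col4a4 changed by 0.03 ± 0.18 and Col4a5 by -0.06 ± 0.24, and the groups overlapped for all 3. Whether the common chains and these chains differed in their change was not tested. The end of Col4a3 shares bases with C430014B12Rik on the opposite strand, and the strand setting of the counting is not given in the sources used here. Col4a6, with an average of 1.73 CPM in PG 1100 lungs and 2.78 CPM in saline lungs, was not called either.

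Col8a1 encodes a short-chain collagen made by smooth muscle and endothelial cells of vessel walls. It had 67.73, 29.35 and 17.37 CPM in PG 1100 lungs, against 13.71, 7.06 and 9.54 CPM in saline lungs. The PG 1100 animals were spread widely, yet the lowest was above the highest saline animal, and the rise was 1.91 ± 0.37 (adjusted p = 0.00103). Without PG 1100 animal 27, the highest, the rise was 1.21 and was still called, and the highest adjusted p over the 13 alternatives was 0.0458. Its relative Col8a2 averaged 3.37 CPM in PG 1100 lungs and 4.96 CPM in saline lungs, with a change of -0.56 ± 0.60, and was not called.

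Both multiplexins, which sit where basement membranes meet the interstitium, were called. Col18a1, the source of the endostatin fragment, had 26.67, 20.49 and 17.15 CPM in PG 1100 lungs, against 10.06, 11.69 and 5.64 CPM in saline lungs. Col15a1 had 10.24, 9.86 and 7.24 CPM in PG 1100 lungs, against 3.16, 0.37 and 3.70 CPM in saline lungs. Both stood apart from saline in every lung, by 1.24 ± 0.26 for Col18a1 (adjusted p = 0.00177) and by 1.89 ± 0.46 for Col15a1 (adjusted p = 0.00722). With only PG 1100 and saline lungs in the fit, Col15a1 had an adjusted p of 0.05 and was no longer called.

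FACIT collagens attach to the surface of fibrils, and 2 of the 3 tested passed the test with little margin. Col14a1 had 22.32, 35.66 and 35.41 CPM in PG 1100 lungs, against 23.38, 12.54 and 21.11 CPM in saline lungs. These groups overlapped, and the change was 0.70 ± 0.23 (adjusted p = 0.0488). Its call was lost without saline animal 8 (0.255), saline animal 10 (0.0685), PG 1100 animal 28 (0.229) or PG 1100 animal 30 (0.163), all as adjusted p. Col16a1 had 26.57, 22.37 and 18.37 CPM in PG 1100 lungs, against 16.28, 12.3 and 9.54 CPM in saline lungs. Although its groups did not overlap, its change of 0.82 ± 0.24 (adjusted p = 0.0277) was not called without saline animal 8 (0.0792), saline animal 10 (0.161), PG 1100 animal 27 (0.111) or PG 1100 animal 28 (0.0812). Col12a1, the third of them, changed by 0.24 ± 0.41. The other 12 calls after PG 1100, apart from Col14a1, Col15a1 and Col16a1, were kept under all 13 alternative settings.

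No transmembrane collagen was called after PG 1100. Col13a1, a membrane collagen of cell adhesion sites, averaged 51.8 CPM in PG 1100 lungs and 55.2 CPM in saline lungs, with a change of -0.09 ± 0.24. Col23a1 averaged 33.4 CPM in PG 1100 lungs and 36.1 CPM in saline lungs, with a change of -0.11 ± 0.22. Col17a1, a hemidesmosome collagen of basal epithelial cells, and Col7a1, the anchoring fibril collagen, stayed below 3.23 CPM and 2.32 CPM in every library, and their SE of 0.82 and 1.36 left their direction unresolved at this depth.

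The lower PG dose gave fewer calls. After PG 826, Col1a1 was the only 1 of the 27 collagen genes called against saline, where 0.0951% of all genes tested were called higher and 0.0407% lower. The groups did not overlap for 4 of the 27, against 13.9% of all genes. The median change of the 27 was 0.34 on the log2 scale. Changes were positive for 24 of the 27, against 50.2% of all genes tested. Against the same saline lungs, 22 of the 27 were positive in ethanol lungs, where 49.5% of all genes were. After PG 1100, 20 of the 27 were positive, against 50.5% of all genes. In PG 826 lungs, Col4a1 (0.56 ± 0.17, adjusted p = 0.246), Col6a1 (0.73 ± 0.19, adjusted p = 0.139) and Col6a2 (0.19 ± 0.15, adjusted p = 0.759) also lay above all saline lungs and were not called. Col1a1 had 146.6, 138.8 and 167.7 CPM in PG 826 lungs, against 113.2, 64.65 and 59.16 CPM in saline lungs. Every PG 826 lung was above every saline lung, and the rise was 0.93 ± 0.20 (adjusted p = 0.0497). The call was kept without saline animal 6 and lost without any other single library of these groups. Its adjusted p was 0.365 without saline animal 8, 0.225 without saline animal 10, and 0.124, 0.095 and 0.206 without PG 826 animals 22, 23 and 25. Without saline animal 6, the saline lung with the most collagen RNA, 7 collagen genes were called. These added Col1a2 (0.73, adjusted p = 0.0262), Col4a1 (0.83, adjusted p = 0.0113), Col4a2 (0.79, adjusted p = 0.0249), Col5a1 (1.08, adjusted p = 0.0409), Col6a1 (1.05, adjusted p = 0.0063) and Col6a3 (0.79, adjusted p = 0.022).

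Between the PG doses, 8 collagen genes were higher at 1100 than at 826, where 2.85% of all genes tested were called higher and 2.71% lower. The dose groups did not overlap for 13 of the 27, against 20.4% of all genes. The 8 were Col1a1, Col1a2, Col3a1, Col5a1, Col5a2, Col6a2, Col6a3 and Col8a1. The step was 1.09 ± 0.16 for Col3a1 (adjusted p = 1.86e-05), 1.13 ± 0.18 for Col5a2 (adjusted p = 0.000111) and 1.08 ± 0.20 for Col1a1 (adjusted p = 0.000853). Col8a1 had 67.73, 29.35 and 17.37 CPM in PG 1100 lungs, against 10.3, 9.39 and 12.91 CPM in PG 826 lungs, with a step of 1.82 ± 0.36 (adjusted p = 0.00242). Over the 13 alternatives the step of Col8a1 was at least 1.11. With only the PG lungs in the fit, the calls of Col8a1 (adjusted p = 0.107) and Col6a2 (adjusted p = 0.0897) were lost. In the PG 826 lungs Col8a1 was as low as in the saline lungs, with which they overlapped. Col4a1 had a step of 0.47 ± 0.17 (adjusted p = 0.101) and Col6a1 of 0.25 ± 0.19 (adjusted p = 0.553), neither called. Values lay the other way for Col4a3 and Col4a4 of the second type IV network, while its Col4a5 changed by only -0.07 ± 0.24 (adjusted p = 0.932). Col4a3 had 17.39, 20.27 and 14.92 CPM in PG 1100 lungs, against 25.75, 29.57 and 26.14 CPM in PG 826 lungs. These groups did not overlap, and the difference of -0.63 ± 0.21 was not called by edgeR (adjusted p = 0.0607) and was called lower by DESeq2 (-0.62, adjusted p = 0.0358). Col4a4, at -0.37 ± 0.18 (adjusted p = 0.267), was called lower without PG 1100 animal 27 (-0.59, adjusted p = 0.0352). This comparison and the comparison of PG 1100 with saline share the PG 1100 lungs. The Col5a1 call between doses was lost without PG 826 animals 22 (0.0618) or 23 (0.108) or PG 1100 animal 27 (0.0801), and that of Col6a2 without any of PG 826 animals 22 (0.0824), 23 (0.0544) and 25 (0.103) or PG 1100 animals 27 (0.123) and 28 (0.0668), given as adjusted p.

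VEA was set against 10% ethanol at each of its doses. Collagen genes were called higher at the 2 upper doses, 5 of 27 at VEA 6.25 and 6 of 27 at VEA 12.5, and none was called at VEA 3.12. Of all genes tested, 3.42% were called higher at VEA 3.12, 3.51% at VEA 6.25 and 5.48% at VEA 12.5. None of the 27 was called lower at any VEA dose, where 2.09% of all genes were at VEA 3.12, 2.25% at VEA 6.25 and 4.23% at VEA 12.5. Groups did not overlap for 10 of the 27 at VEA 3.12, 9 at VEA 6.25 and 14 at VEA 12.5, against 24.7%, 23.5% and 30.1% of all genes in the same order. At VEA 3.12, 8 of the 27 had an unadjusted p below 0.05, DESeq2 called 2 and limma-voom called 1. The median change of the 27 was 0.16 at VEA 3.12, 0.05 at VEA 6.25 and 0.28 at VEA 12.5. All VEA comparisons share the same 3 ethanol lungs.

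Fibrillar genes made up 4 of the calls at each upper dose. Col3a1 had 244, 313.4 and 274 CPM in ethanol lungs, 369.5, 394.7 and 394.7 CPM at VEA 3.12, 539.5, 499.8 and 471.1 CPM at VEA 6.25 and 572.8, 568.2 and 511.8 CPM at VEA 12.5. Its lungs stood above all ethanol lungs at every dose. The change was 0.48 ± 0.15 at VEA 3.12 (adjusted p = 0.0595), 0.86 ± 0.16 at VEA 6.25 (adjusted p = 0.00039) and 0.99 ± 0.16 at VEA 12.5 (adjusted p = 2.47e-05). Col1a1 had 111.8, 136 and 116.8 CPM in ethanol lungs, 206.2, 187.6 and 173 CPM at VEA 3.12, 227.9, 218.7 and 159.8 CPM at VEA 6.25 and 251.2, 284.1 and 206.8 CPM at VEA 12.5. No treated lung overlapped the ethanol lungs. The change in Col1a1 was 0.64 ± 0.20 at VEA 3.12 (adjusted p = 0.0532), 0.73 ± 0.20 at VEA 6.25 (adjusted p = 0.0232) and 1.03 ± 0.20 at VEA 12.5 (adjusted p = 0.000818).

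Col1a2 had 427, 494.4 and 398.3 CPM in ethanol lungs, 516.3, 581.5 and 681.5 CPM at VEA 3.12, 762.9, 754.8 and 535.8 CPM at VEA 6.25 and 712.7, 829 and 620.3 CPM at VEA 12.5. Ethanol lungs were again lowest throughout, and the change was 0.43 ± 0.19 at VEA 3.12 (adjusted p = 0.207), 0.64 ± 0.19 at VEA 6.25 (adjusted p = 0.0441) and 0.71 ± 0.19 at VEA 12.5 (adjusted p = 0.0147). Col5a2 had 40.94, 46.65 and 42.72 CPM in ethanol lungs, 50.99, 60.51 and 71.47 CPM at VEA 3.12, 64.43, 86.2 and 49.15 CPM at VEA 6.25 and 69.04, 77.59 and 68.66 CPM at VEA 12.5. No treated lung fell into the ethanol range, and the change was 0.49 ± 0.18 at VEA 3.12 (adjusted p = 0.12), 0.62 ± 0.18 at VEA 6.25 (adjusted p = 0.0379) and 0.72 ± 0.18 at VEA 12.5 (adjusted p = 0.00766). Col5a1 just missed the threshold at VEA 12.5. It had 24.92, 32.82 and 32.73 CPM in VEA 12.5 lungs, against 16.24, 18.03 and 18.13 CPM in ethanol lungs, with a change of 0.79 ± 0.26 (adjusted p = 0.0535).

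Col6a3 was the only type VI chain called after VEA. It had 50.38, 54.96 and 38.73 CPM in ethanol lungs, 69.26, 64.06 and 56.8 CPM at VEA 3.12, 82.67, 80.44 and 69.14 CPM at VEA 6.25 and 82, 80.84 and 71.1 CPM at VEA 12.5. Treated and ethanol lungs did not overlap, and the change was 0.40 ± 0.19 at VEA 3.12 (adjusted p = 0.232), 0.69 ± 0.19 at VEA 6.25 (adjusted p = 0.0217) and 0.70 ± 0.19 at VEA 12.5 (adjusted p = 0.0117). Col6a1 changed by 0.37 ± 0.19 (adjusted p = 0.236) and Col6a2 by 0.39 ± 0.15 (adjusted p = 0.102) at VEA 12.5, and neither was called. Of the basement membrane genes Col4a1 was called at VEA 12.5. It had 406.4, 396.2 and 404.8 CPM in VEA 12.5 lungs, against 206.8, 286.5 and 298.7 CPM in ethanol lungs. The VEA 12.5 lungs lay close together above all ethanol lungs, with a rise of 0.61 ± 0.17 (adjusted p = 0.0153). Col4a2 changed by 0.46 ± 0.18 at that dose (adjusted p = 0.104), and Col4a3, Col4a4, Col4a5 and Col4a6 were not called.

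Col8a1 lay lower after VEA than in ethanol lungs without passing the test. It had 11.74, 14.69 and 16.4 CPM in ethanol lungs, 7.33, 10.75 and 11.69 CPM at VEA 3.12, 11.66, 9.85 and 4.82 CPM at VEA 6.25 and 10.57, 7.96 and 6.82 CPM at VEA 12.5. No treated lung reached the lowest ethanol lung, and the change at VEA 12.5 was -0.76 ± 0.37 (adjusted p = 0.226). Lungs of each VEA dose overlapped the saline lungs, which had 7.06 to 13.71 CPM. Col8a1 averaged 14.3 CPM in ethanol lungs and 10.1 CPM in saline lungs, with a change of 0.49 ± 0.37 (adjusted p = 0.913). Both multiplexins had positive changes at VEA 12.5 that did not pass, at 0.62 ± 0.26 for Col18a1 (adjusted p = 0.137) and 0.98 ± 0.44 for Col15a1 (adjusted p = 0.176). The FACIT and transmembrane genes held no call at any VEA dose, and Col14a1 changed by -0.04 ± 0.22 at VEA 12.5.

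Several of these calls were lost when a single animal was left out, which also made its group smaller. The log2 fold change of a lost call was then smaller in some cases and larger in others. Why the calls were lost was not tested. At VEA 6.25 the number of collagen genes called was 1 without ethanol animal 12, 3 without ethanol animal 13, 1 without ethanol animal 14 and 1 without VEA 6.25 animal 63 or 64. Only Col3a1 was kept under all 13 alternatives at VEA 6.25. At VEA 12.5, Col1a1, Col3a1 and Col5a2 were kept under all 13. Col1a2 at VEA 12.5 was not called without ethanol animal 12 (adjusted p = 0.0583), ethanol animal 14 (0.0738) or VEA 12.5 animal 68 (0.08), Col4a1 was not called without ethanol animal 12 (0.129), and Col6a3 was not called without ethanol animal 14 (0.0898). At VEA 3.12, Col1a1 was called by DESeq2 (adjusted p = 0.0242) and limma-voom (adjusted p = 0.0374), and Col3a1 by DESeq2 (adjusted p = 0.0383).

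**Figure D3:**
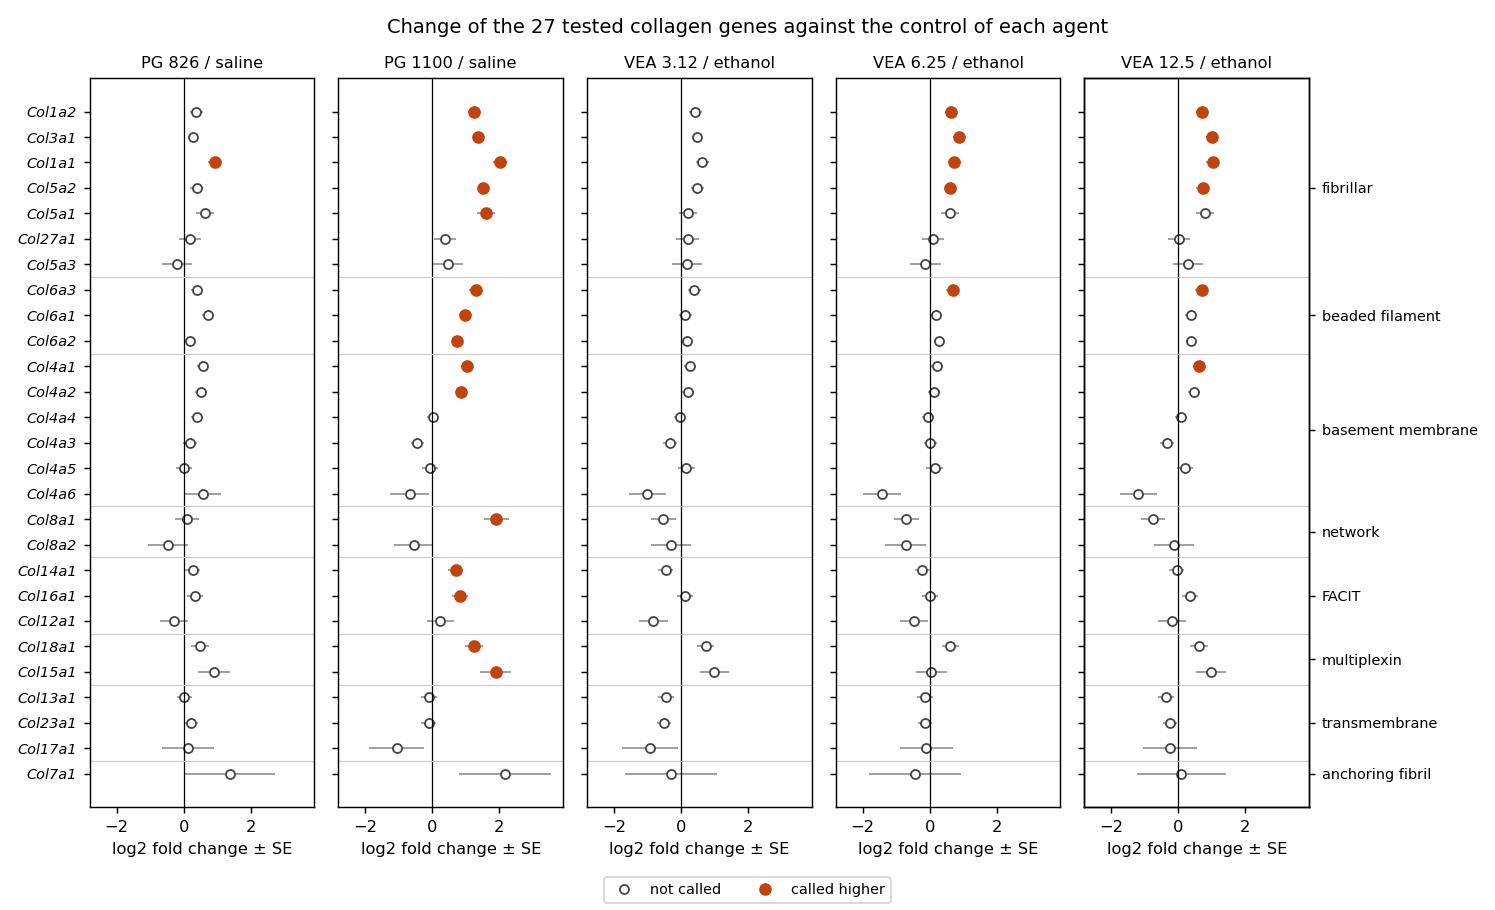
Log2 fold change ± SE of the 27 tested collagen genes in each comparison with a control, by collagen class; filled points were called by edgeR at an adjusted p below 0.05. Filled points gather in the fibrillar class, with 5 genes after PG 1100 and 4 at each of VEA 6.25 and VEA 12.5, and no filled point lies below 0.

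Within VEA, 0 collagen genes were called between 12.5 and 3.12, where 0% of all genes tested were called. By unadjusted p, 3 of the 27 were below 0.05, and DESeq2 and limma-voom each called 0. The groups did not overlap for 7 of the 27, against 14.3% of all genes. Col3a1 averaged 551 CPM in VEA 12.5 lungs and 386 CPM in VEA 3.12 lungs, a difference of 0.51 ± 0.15 (adjusted p = 0.65). The vehicles were also set against each other. In ethanol against saline lungs 0 of the 27 collagen genes and 0% of all genes tested were called, 3 of the 27 had an unadjusted p below 0.05, and DESeq2 and limma-voom each called 0. The vehicle groups overlapped for all 27, where 9.06% of all genes showed no overlap. Col1a1 averaged 122 CPM in ethanol lungs and 79 CPM in saline lungs, with a change of 0.62 ± 0.20 (adjusted p = 0.599). Without saline animal 6, this change was 0.98 and was called (adjusted p = 0.0291).

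The response to the highest VEA dose minus the response to the highest PG dose was tested as an interaction. A single collagen gene, Col8a1, differed between the agents, lower for VEA, where 0.0543% of all genes tested were called lower and 0.136% higher. The difference was -2.67 ± 0.52 (adjusted p = 0.0189), between a change of -0.76 after VEA 12.5 and 1.91 after PG 1100. Over the alternatives its adjusted p ran between 1.57e-09 and 0.113, and it was not called without saline animals 8 (0.0844) or 10 (0.0625), ethanol animals 13 (0.0734) or 14 (0.0618), or VEA 12.5 animals 68 (0.077) or 70 (0.0844). Without PG 1100 animal 27 the difference was -1.95, the smallest in size over the 19 alternatives. Without saline animal 6, Col1a1 (-1.35, adjusted p = 0.00453) and Col6a3 (-0.98, adjusted p = 0.0422) were called beside Col8a1, 3 genes in all. For Col1a1 the difference between agents was -0.99 ± 0.28 (adjusted p = 0.158), for Col5a2 -0.79 ± 0.26 (adjusted p = 0.287) and for Col3a1 -0.38 ± 0.22 (adjusted p = 0.742). The doses of the 2 agents differ, and so do their controls. Col8a1 averaged 14.3 CPM in ethanol lungs and 10.1 CPM in saline lungs, and both enter its difference between agents. The median difference over the 27 was -0.42.

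**Figure D4:**
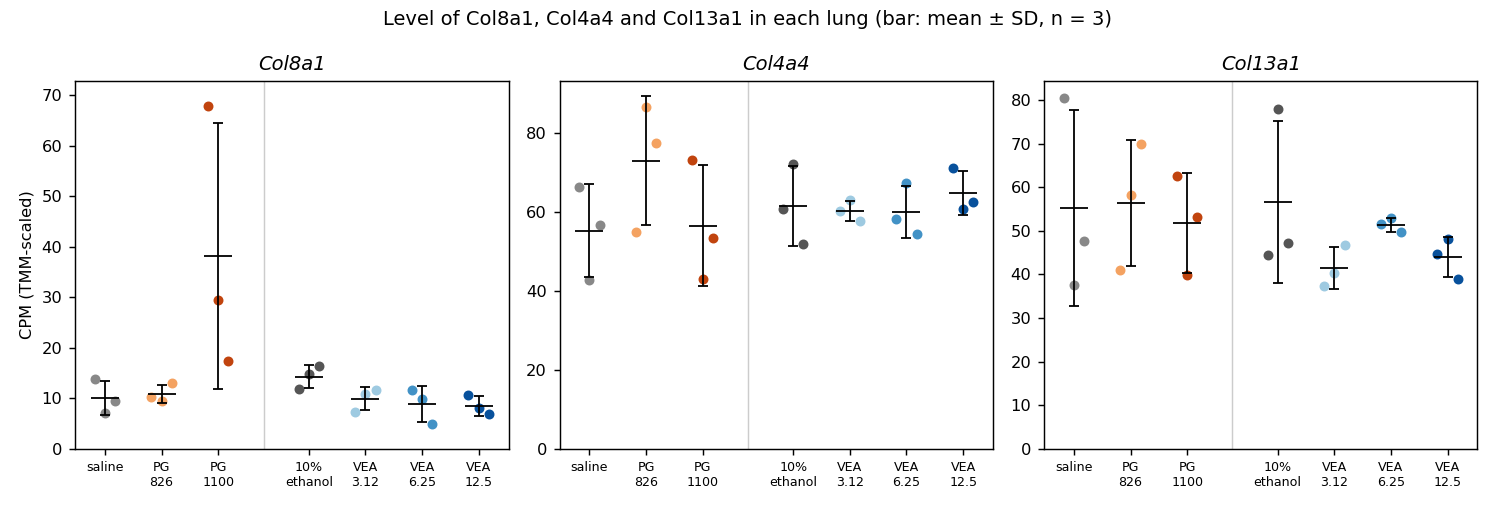
Level in each lung, in TMM-scaled CPM, of Col8a1 (network), Col4a4 (basement membrane) and Col13a1 (transmembrane), with 1 point per animal and the mean ± SD of 3 animals. Col8a1 reaches 67.73, 29.35 and 17.37 CPM in PG 1100 lungs and stays at or below 16.4 CPM elsewhere, and for Col4a4 and Col13a1 each treated group overlaps its own control.

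Summed over the 44 genes, collagen RNA was 3293 ± 639.6 CPM in PG 1100 lungs and 1504 ± 463.7 CPM in saline lungs (SD, n = 3). All PG 1100 lungs, at 4015, 3065 and 2798 CPM, were above the highest saline lung at 2036 CPM. PG 826 lungs had 2006 ± 123.9 CPM and overlapped the saline lungs. Ethanol lungs had 1752 ± 159.9 CPM, VEA 3.12 lungs 2168 ± 56.77 CPM, VEA 6.25 lungs 2422 ± 300.1 CPM and VEA 12.5 lungs 2712 ± 214.7 CPM, and no VEA lung overlapped the ethanol lungs. With 3 animals against 3 an exact two-sided permutation test cannot give a p below 0.1, so sums, shares and ratios are given with no test.

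The make-up of the collagen RNA differed as well. Fibrillar genes took 61.5% to 64.56% of the collagen CPM in PG 1100 lungs, against 49.22% to 53.69% in saline lungs. PG 826 lungs, at 48.99% to 55.14%, spanned the saline range. In ethanol lungs the share was 50.41% to 52.86%, and it was 55.92% to 60.73% at VEA 3.12, 60.15% to 62.9% at VEA 6.25 and 58.58% to 62.16% at VEA 12.5. The basement membrane share was 21.48% to 24.18% in PG 1100 lungs, against 27.86% to 30.05% in saline lungs. PG 826 lungs, at 28.29% to 34.12%, overlapped the saline lungs in this share. In ethanol lungs it was 26.79% to 32.09%. VEA 6.25 lungs lay below these, at 22.51% to 24.66%. VEA 3.12 lungs, at 25.74% to 28.02%, and VEA 12.5 lungs, at 23.87% to 27.85%, overlapped the ethanol lungs. Transmembrane genes took 2.07% to 3.30% in PG 1100 lungs, against 5.64% to 6.80% in saline lungs. Shares of a sum are tied, so a larger fibrillar share lowers the others.

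Type I collagen is built from Col1a1 and Col1a2 chains, and the ratio of their tags differed between groups. It was 0.353 ± 0.015 in PG 1100 lungs and 0.207 ± 0.004 in saline lungs (SD, n = 3), and 0.305 ± 0.014 in PG 826 lungs. Each saline lung lay below each PG lung. The ratio was 0.277 ± 0.016 in ethanol lungs, 0.325 ± 0.073 at VEA 3.12, 0.296 ± 0.005 at VEA 6.25 and 0.343 ± 0.010 at VEA 12.5. VEA 12.5 lungs were above all ethanol lungs, and the lower doses overlapped them. The ethanol lungs were themselves above all saline lungs in this ratio. A ratio of 3′ tags is not a ratio of chains in the protein. For the type IV pair, Col4a1 over Col4a2 was 2.17 ± 0.46 in PG 1100 lungs and 1.90 ± 0.03 in saline lungs, and the groups overlapped. Col6a3 over Col6a1 was 1.46 ± 0.17 in PG 1100 lungs and 1.15 ± 0.27 in saline lungs, and these overlapped too.

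**Figure D5:**
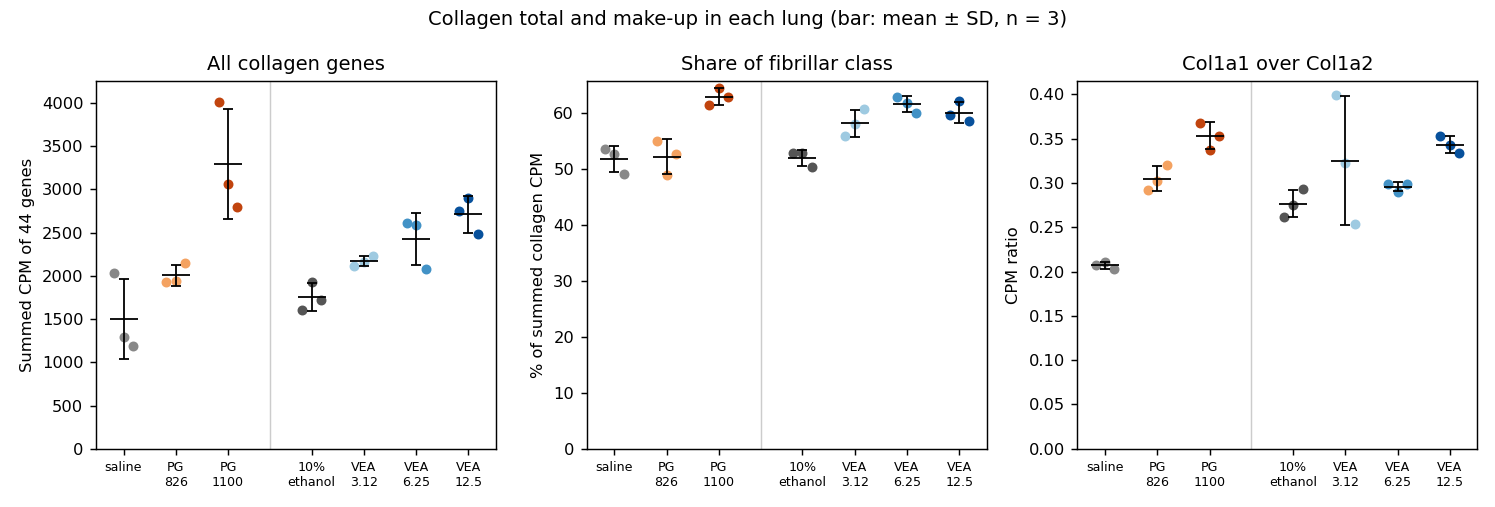
Summed CPM of the 44 collagen genes, the fibrillar share of that sum in percent, and the ratio of Col1a1 to Col1a2 tags in each lung, with 1 point per animal and the mean ± SD of 3 animals. Fibrillar shares of PG 1100 lungs, 61.5% to 64.56%, lie above those of saline lungs, 49.22% to 53.69%.

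Genes that make, trim, link, bind or degrade collagen, and genes of fibrogenic signalling, were counted in 7 lists. Over all genes tested, the share called higher and the share called lower were 4.09% and 3.23% after PG 1100, 3.42% and 2.09% at VEA 3.12, 3.51% and 2.25% at VEA 6.25, and 5.48% and 4.23% at VEA 12.5. Among 6 crosslinking enzymes, 3 rose after PG 1100 and none fell. Lox, the lysyl oxidase that starts crosslinks, averaged 45.31 ± 10.88 CPM in PG 1100 lungs and 15.03 ± 1.94 CPM in saline lungs (SD, n = 3), with a rise of 1.59 ± 0.20 (adjusted p = 1.5e-06). Loxl2 rose by 1.48 ± 0.22 and Loxl1 by 0.76 ± 0.18 after PG 1100. Lox was also the only member of this list called after PG 826, at 1.07 ± 0.20 (adjusted p = 0.00901), and the only member called at each VEA dose, at 0.78 ± 0.20 for VEA 3.12, 0.96 ± 0.20 for VEA 6.25 and 1.13 ± 0.20 for VEA 12.5 (adjusted p = 0.0134, 0.00202 and 0.000138). At VEA 3.12 no collagen gene passed.

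Adamts2, the protease that removes the amino-terminal propeptide of fibrillar collagens, averaged 71.31 ± 13.33 CPM in PG 1100 lungs and 16.76 ± 7.88 CPM in saline lungs. It rose by 2.09 ± 0.23 (adjusted p = 2.91e-07), the 1 member of 7 tested propeptide genes called higher. Pcolce2, an enhancer of the carboxyl-terminal cut, fell by 0.60 (adjusted p = 0.0103). Adamts2 rose at all VEA doses too, by 0.87 ± 0.23 at VEA 3.12, 1.18 ± 0.23 at VEA 6.25 and 1.11 ± 0.23 at VEA 12.5. Bmp1, the carboxyl-terminal protease, rose at VEA 12.5 by 0.87 ± 0.28 (adjusted p = 0.0411), and Pcolce2 fell there by 0.77.

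The 23 genes of chain modification and folding were split. After PG 1100, 3 rose and 2 fell. P4ha3, a catalytic subunit of prolyl hydroxylase, averaged 8.57 ± 5.85 CPM in PG 1100 lungs and 0.94 ± 0.56 CPM in saline lungs, with a rise of 3.15 ± 0.72 (adjusted p = 0.00532). P4hb, its disulfide isomerase subunit, rose by 0.54 ± 0.13. P4ha1, the main catalytic subunit, went the other way and fell by 0.78 (adjusted p = 0.00315), and Colgalt2, a collagen galactosyltransferase, fell by 1.03. VEA 12.5 gave 3 rises and 3 falls, with Colgalt1 at 0.57 ± 0.13, P4ha3 at 2.81 ± 0.74, Plod2, a lysyl hydroxylase, at -0.50 ± 0.15 and P4hb at 0.42 ± 0.13. At VEA 3.12, P4ha3 was the only call (2.60 ± 0.74), and at VEA 6.25 Colgalt2 was (-1.03 ± 0.26).

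Of 9 collagen-degrading enzymes tested, 3 rose and 1 fell after PG 1100. Mmp2, a gelatinase, rose by 1.69 ± 0.21 (adjusted p = 3.06e-06), Mmp14, its membrane-bound activator, by 1.42 ± 0.22 and Ctsk, a lysosomal collagenase, by 2.11 ± 0.37, while Mmp9 fell by 1.09. At VEA 12.5, 4 rose and none fell. Ctsk averaged 220.2 ± 29.14 CPM in VEA 12.5 lungs and 16.75 ± 5.58 CPM in ethanol lungs, with a rise of 3.72 ± 0.39 (adjusted p = 1.61e-05), Mmp8, the neutrophil collagenase, rose by 2.59 ± 0.31, Mmp2 by 0.95 ± 0.21 and Mmp14 by 0.91 ± 0.22. Ctsk and Mmp8 were the 2 called at VEA 3.12, and Mmp2 joined them at VEA 6.25.

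Proteoglycans that coat fibrils moved both ways. After PG 1100, Aspn (0.97 ± 0.25) and Bgn (0.51 ± 0.16) rose and Ogn fell by 0.78, of 7 tested. At VEA 12.5 none rose, Ogn fell by 0.74 and Dcn by 0.49, and the lower VEA doses had no call. Of 8 collagen receptors tested, Lair1, an inhibitory receptor of immune cells, rose after PG 1100 by 1.26 ± 0.35, at VEA 6.25 by 1.12 ± 0.35 and at VEA 12.5 by 1.59 ± 0.35. Itga1, an integrin chain that binds collagen IV, fell at VEA 6.25 by 1.10, and VEA 3.12 had no call.

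Of 12 tested genes of fibrogenic signalling, 3 rose after PG 1100. Igf1, a growth factor, averaged 146.5 ± 15.98 CPM in PG 1100 lungs and 34.14 ± 6.50 CPM in saline lungs, with a rise of 2.10 ± 0.15 (adjusted p = 6.08e-12). Tnc, a matrix protein of wound repair, rose by 3.73 ± 0.40 and Tgfb3 by 0.58 ± 0.18. Igf1 and Tnc were the 2 that rose at each VEA dose, and at VEA 12.5 their rises were 1.51 ± 0.15 and 1.58 ± 0.38. Acta2, the smooth muscle actin also made by myofibroblasts, fell by 1.05 at VEA 12.5 (adjusted p = 0.0164). PG 826 had no call in any of these lists other than Lox.

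Markers of cell types were set beside the collagen result, and their counts stand beside the same shares over all genes tested. The 11 fibroblast markers summed to 2437 to 2801 CPM in PG 1100 lungs, against 3475 to 3645 CPM in saline lungs, with 1 called higher (Dpt) and 1 lower (Inmt). In VEA 12.5 lungs they summed to 2289 to 2549 CPM, against 3440 to 3860 CPM in ethanol lungs, with 1 called higher (Mfap4) and 5 lower (Inmt, Gpc3, Limch1, Pdgfra and Dcn). Inmt alone averaged 871.8 CPM in PG 1100 lungs and 1861 CPM in saline lungs, and 918.6 CPM in VEA 12.5 lungs and 1866 CPM in ethanol lungs. The median change of the 11 fibroblast markers was 0.17 on the log2 scale after PG 1100 and -0.34 at VEA 12.5. Smooth muscle markers summed to 615.7 to 878.6 CPM in PG 1100 lungs, against 388.9 to 568.7 CPM in saline lungs, with none of 6 called. Acta2 alone averaged 463.9 CPM in PG 1100 lungs and 257.5 CPM in saline lungs, and Myh11 70 and 67.19 CPM in the same order. In VEA 12.5 lungs they summed to 275 to 311 CPM, against 310.4 to 693.6 CPM in ethanol lungs, with 3 of 6 called lower. Pericyte markers summed to 80.83 to 131 CPM in PG 1100 lungs, against 68.42 to 83.76 CPM in saline lungs, with 2 of 4 called higher, and at VEA 12.5 none was called.

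Endothelial markers summed to 569.7 to 776.4 CPM in PG 1100 lungs, against 1052 to 1323 CPM in saline lungs, with 5 of 6 called lower. They summed to 790.5 to 859.8 CPM in VEA 12.5 lungs, against 1187 to 1259 CPM in ethanol lungs, with 3 of 6 lower. Col4a1, Col4a2, Col15a1 and Col18a1, made in part by endothelium, were higher after PG 1100, where these markers were lower. Whether these changes were linked was not tested, and lower marker RNA in bulk tissue cannot be told from fewer endothelial cells. Alveolar type I markers had 1 of 5 called lower after PG 1100 and 2 of 5 at VEA 12.5, and alveolar type II markers 3 of 6 and 2 of 6 called higher. Mesothelial markers had 0 of 5 called after PG 1100 and 3 of 5 lower at VEA 12.5, and nerve and Schwann cell markers 0 of 3 and 2 of 3 lower. Cartilage markers summed to at most 36.8 CPM in any group, with Matn1 at 0 in every library and Comp at most 0.11 CPM, and 1 of the 2 tested, Chad, was lower after PG 1100. Airway basal cell markers summed to 4.10 to 129.6 CPM in PG 1100 lungs, against 1.46 to 27.54 CPM in saline lungs, mostly Krt15, and the 1 tested was not called. After PG 826 no gene of the 10 marker lists was called.

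Markers also moved in the other comparisons with collagen calls. Between PG 1100 and PG 826, where 2.85% of all genes tested were called higher and 2.71% lower, 2 of 6 smooth muscle and 4 of 6 alveolar type II markers were called higher and 4 of 6 endothelial markers lower. Smooth muscle markers summed to 615.7 to 878.6 CPM in PG 1100 lungs, against 326.4 to 472.1 CPM in PG 826 lungs. Most of this sum was Acta2, which averaged 463.9 CPM in PG 1100 lungs and 190.7 CPM in PG 826 lungs. In the same order Tagln averaged 145.7 and 71.71 CPM, Myh11 70 and 57.31 CPM and Des 47.59 and 44.87 CPM. In that comparison 1 of 4 pericyte markers was higher, 1 of 11 fibroblast markers was higher and 1 lower, and 1 of 5 alveolar type I markers was lower. For the VEA 12.5 response minus the PG 1100 response, which called Col8a1, 1 of 6 smooth muscle markers was called lower and no gene of the other 9 lists was called. At VEA 6.25, 4 of 6 endothelial markers were lower, and they summed to 809.9 to 826 CPM in VEA 6.25 lungs, against 1187 to 1259 CPM in ethanol lungs. Of the 11 fibroblast markers 2 were higher and 3 lower at VEA 6.25, and smooth muscle, mesothelium and alveolar type I each had 1 marker lower. The part of these cell types in the collagen changes was not tested.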

How the data were processed

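Each of the 21 libraries was made from 500 ng of lung RNA of a single mouse with a QuantSeq 3′ kit, per the labels' protocols. The files deposited by the authors hold whole-number counts per gene symbol, 1 file per library. Bowtie2, bedtools and the build mm10 are named in the submitters' processing notes, without versions, and the annotation and strand setting are not given in the sources used here. Symbols listed repeatedly (35, no collagen among them) had their rows summed. Filtering by group with filterByExpr left 14727 of 23238 symbols. Animals of 1 group differed by far more than counting noise (chi-square per degree of freedom 8.14 to 40.48).

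edgeR 4.0.16 (R 4.3.3, with the R package data.table in version 1.17.8) applied TMM factors and fitted its robust quasi-likelihood model jointly to the 7 group means, leaving 14 residual degrees of freedom, and the coefficient of variation between animals came to 23.81%. There were 9 comparisons, namely the doses with their own controls, the controls with each other, the outer doses within an agent and the difference of the VEA 12.5 and PG 1100 responses. P-values were adjusted by Benjamini-Hochberg over all genes tested. Each SE was the size of the log2 fold change divided by the root of its F value. Animal numbers are those of the sample titles.

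The members, collagen classes, 8 partner lists and 10 marker lists were chosen with earlier results of these data known. Values per animal are given for members called in at least 1 of the 5 comparisons with a control, and up to 4 called members per partner list are named, by adjusted p. The list of basement membrane partners is not reported here. Col8a1, Col4a4 and Col13a1 were chosen for a figure after their values were seen. Alternatives were RLE factors, DESeq2 1.42.0, limma-voom (limma 3.58.1), no filter, only the groups compared, libraries without Rn45s and haemoglobin genes, and each animal left out in turn. Leaving out the 3 libraries in which fewest genes were seen (saline animal 8, ethanol animal 13 and VEA 6.25 animal 65) was an alternative chosen after seeing the data. The scripts were tested on simulated data. Promoters come from RefSeq on GRCm38.p6, and overlaps from GENCODE M21. Figures were drawn with matplotlib 3.10.9 in Python 3.11.15.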

Additional observations from a re-analysis of the deposited data

Results flagged for a closer look

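The change of Col8a1 differed between the agents. After VEA 12.5 it was -0.76 ± 0.37 against ethanol, and after PG 1100 it was 1.91 ± 0.37 against saline. The interaction test of edgeR gave a difference of -2.67 ± 0.52 (adjusted p = 0.0189), with all 3 VEA 12.5 lungs below all ethanol lungs and all 3 PG 1100 lungs above all saline lungs. Over the 19 alternatives of this result the adjusted p ran between 1.57e-09 and 0.113, and the call was lost in 9. The difference was negative in all 19. The controls enter this difference too, and Col8a1 averaged 14.3 CPM in ethanol lungs and 10.1 CPM in saline lungs.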

How the results depend on the processing

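None of the 36 calls of collagen genes examined reversed under an alternative, 21 were kept under all of them and 15 were lost under at least 1. The counts of collagen genes called moved most where few were called. For PG 826 against saline the count of 1 became 3 without the filter, 0 with only the groups compared and 0 without the 3 libraries in which fewest genes were seen (an alternative chosen after seeing the data), and it ran between 0 and 7 with an animal left out. For VEA 3.12 against ethanol the count of 0 became 1 with RLE factors, 2 with DESeq2, 1 with limma-voom, 2 without the filter, 3 with only the groups compared, 1 without Rn45s and haemoglobin genes and 1 without the 3 libraries. For ethanol against saline 0 became 1 without the filter (0 to 1 with an animal left out), and for VEA 12.5 against VEA 3.12 it became 1 with only the groups compared. For the difference between agents 1 became 0 with limma-voom, 2 without the filter, 0 with only the groups compared and 0 without the 3 libraries (0 to 3 with an animal left out). With an animal left out the count ran between 13 and 15 for PG 1100 against saline, 6 and 9 for PG 1100 against PG 826, 1 and 5 for VEA 6.25 and 4 and 7 for VEA 12.5. The cause was not tested. Where an animal is left out, its group has 2 animals and the spread is that of all groups. Depth limits Col7a1, Col17a1, Col4a6 and Col8a2 and the 17 untested genes. No paired analysis was possible because the numbers in the sample titles are animal numbers that no pair of groups shares.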
